A study of Rattus norvegicus with 13 samples.

Results

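The proteasome genes described here are the 46 genes whose symbol is Psma, Psmb, Psmc, Psmd, Psme, Psmf or Psmg followed by a digit and that had a probe set of their own, of 14217 genes with such a probe set on the Affymetrix Rat Genome 230 2.0 array. A probe set is a group of short oligonucleotides that together read out 1 transcript. Rat articular chondrocytes, the cells of joint cartilage, came from femoral head cartilage of male rats of the Wistar strain (age given as 2 months), were pooled at second passage and seeded into flasks, and the RNA of each flask went to its own array. For 4 arrays the cells received 20 mM glucosamine, an amino sugar taken for osteoarthritis, and 6 hours later 10 ng/ml interleukin-1β (IL-1β), the inflammatory cytokine, for 14 hours. For 2 arrays they received 20 mM glucosamine alone for 20 hours, for 4 arrays 10 ng/ml IL-1β alone for 14 hours, and for 3 arrays no treatment. Since the cells were pooled before seeding, p-values measure the spread between flasks of 1 cell pool and not between animals. Passaged cells in monolayer also differ from chondrocytes in cartilage.

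The proteasome is the barrel-shaped protease that degrades ubiquitin-tagged proteins. Its 20S core is built of rings of alpha subunits, which gate the entrance, and beta subunits, some of which carry the proteolytic sites, and the 19S cap adds a base of ATPases and a lid that removes ubiquitin. Inflammatory cytokines, interferon-γ above all, are known to induce Psmb8, Psmb9 and Psmb10, which replace the catalytic beta subunits Psmb5, Psmb6 and Psmb7 in newly assembled cores to form the immunoproteasome, and also the PA28 activator of Psme1 and Psme2. Activation of NF-κB by IL-1β itself needs the proteasome, which degrades the inhibitor IκB.

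The 46 genes comprised 7 alpha subunits, 6 constitutive beta subunits, 3 inducible beta subunits, 9 subunits of the base, 8 of the lid, 4 activators or inhibitors and 7 assembly factors, with 2 further genes that share only the symbol pattern. They were read out by 60 probe sets, of which 59 were tested, and for a gene with several the brightest by mean log2 signal stood for the gene. Psmb6 and Psme3 are not among them, since their probe sets were also annotated to other genes.

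Signal is the deposited brightness of a probe set on a linear scale. Col2a1 and Acan, which encode the main collagen and proteoglycan of cartilage, were well above the floor described below on every array, with a signal of at least 2422 for Col2a1 and at least 30.9 for Acan. Col2a1 is read here by its brightest probe set, and the authors report far lower collagen type II values, lowest with IL-1β alone. Acan was 129 to 193 with glucosamine + IL-1β, 223 and 296 with glucosamine, 30.9 to 38.8 with IL-1β and 226 to 253 in untreated cells. The summed signal of the 6 measured chondrocyte markers of 8 was 4101 to 4913 with glucosamine + IL-1β, 5234 to 5487 with glucosamine, 3762 to 4611 with IL-1β and 7129 to 8034 in untreated cells. By the test described below, 5 of the 6 were called lower with IL-1β, 2 with glucosamine and 5 with glucosamine + IL-1β, each against untreated, and 0 higher. The replicate d arrays of glucosamine + IL-1β and of IL-1β stood apart: the 1st percentile of signal was -36.8 and -31.0 on these arrays and -6.47 to -4.81 on the other 11. Without both of them, the genes called below numbered 14 for IL-1β, 13 for glucosamine and 16 for glucosamine + IL-1β, each against untreated, and 17 for glucosamine + IL-1β against IL-1β, where with all arrays they were 14, 8, 10 and 12. Calls over all probe sets rose too, to 9348, 6811, 9395 and 9148 from 7067, 4300, 6986 and 6822.

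Values under 5.71, the 25th percentile of all values, were set to that floor, and changes were tested with limma on log2 signal with all 4 groups in 1 fit, and a gene was called higher or lower at a Benjamini-Hochberg adjusted p under 0.05 over all 29263 probe sets tested. With IL-1β against untreated cells, 12 of the 46 genes were called higher and 2 lower, where 15.5% of all 13748 genes tested were called higher and 15.3% lower. With glucosamine against untreated cells, 5 were higher and 3 lower, against 10.4% and 9.37% of all genes. With glucosamine + IL-1β against untreated cells, 8 were higher and 2 lower, against 16.6% and 14.7%. With glucosamine + IL-1β against IL-1β, 6 were higher and 6 lower, against 15.8% and 14.8%. With glucosamine + IL-1β against glucosamine, 1 was higher and 0 lower, against 1.45% and 1.13%. The share of proteasome genes called higher with IL-1β was 26.1%, and the share called lower was 4.35% both with IL-1β and with glucosamine + IL-1β, each against untreated. These comparisons share arrays, since the IL-1β, glucosamine + IL-1β and untreated arrays each enter several of them.

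The median log2 change of the 46 genes was 0.06 with IL-1β, 0.08 with glucosamine and 0.10 with glucosamine + IL-1β, each against untreated, where that of all genes was 0.09, 0.00 and 0.13. In total 27 of the 46 genes were called in none of the 6 comparisons, which include the interaction described below, and 19 in at least 1 (41.3%, against 47.8% of all genes tested).

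**Figure D1:**
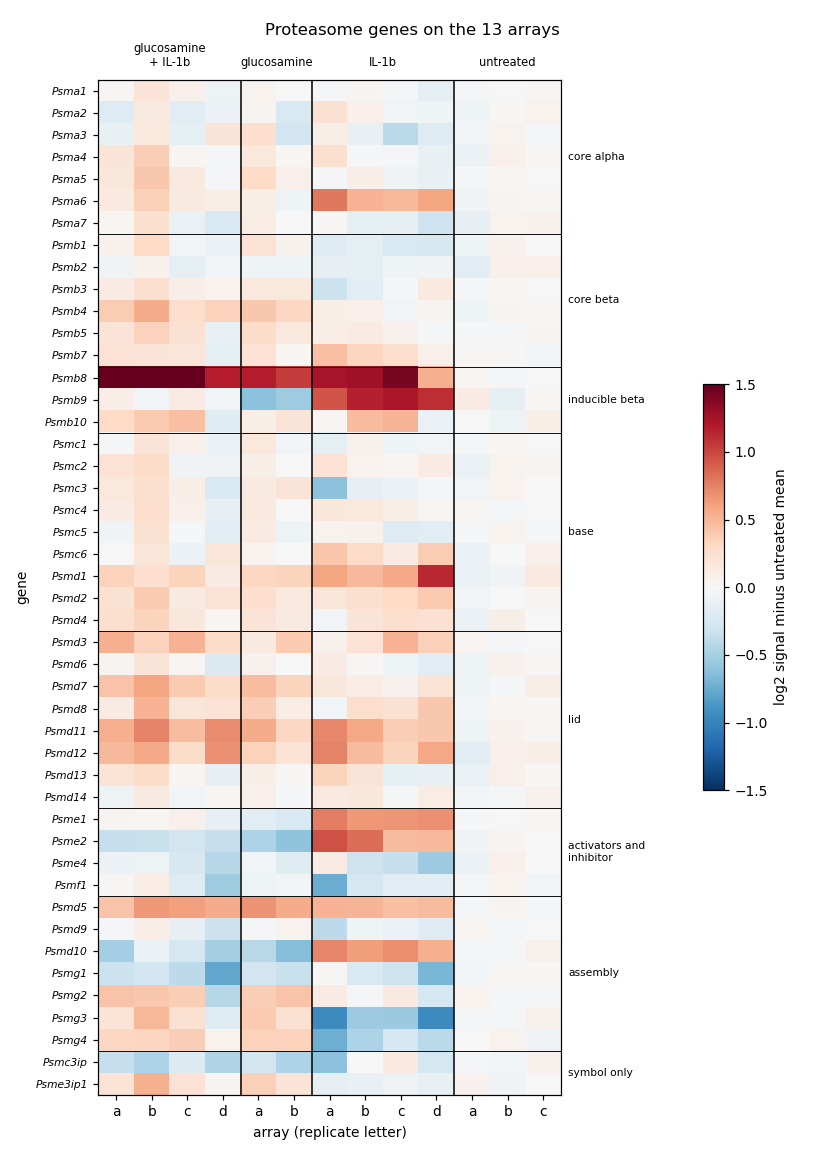
Log2 signal of each of the 46 genes (rows, by class) on each of the 13 arrays (columns, by group and replicate letter), minus the mean of the 3 untreated arrays. Red is higher and blue lower, with the colour at its limit beyond 1.5 in either direction, which Psmb8 passes on the glucosamine + IL-1β arrays a, b and c. Most rows of the core, base and lid stay pale, while Psmb8, Psmb9, Psme1, Psme2, Psmd10, Psmg3 and Psmg4 stand out in 1 or more groups.

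The inducible subunits moved in different ways. Psmb9, the subunit LMP2, rose with IL-1β, fell with glucosamine alone, and with glucosamine + IL-1β lay within the untreated range. Psmb8, the subunit LMP7, rose in all 3 treated groups. For Psmb10, the subunit MECL-1, no comparison passed the test.

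The signal of Psmb9 was 103, 93.5, 105 and 93.5 with glucosamine + IL-1β, 62.7 and 66.4 with glucosamine, 185, 216, 226 and 208 with IL-1β and 105, 87.1 and 97.8 in untreated cells. All 4 IL-1β arrays lay above every other array and both glucosamine arrays below every other, while the glucosamine + IL-1β arrays lay within the untreated range. With IL-1β, Psmb9 was 2.16-fold higher than in untreated cells (log2 change 1.11 ± 0.09, SE, limma adjusted p = 3.15e-06). With glucosamine + IL-1β it was 2.11-fold lower than with IL-1β (-1.08 ± 0.09, adjusted p = 2.91e-06), and with glucosamine alone 1.49-fold lower than in untreated cells (-0.58 ± 0.11, adjusted p = 0.00375). It was the 1 gene of the 46 called between glucosamine + IL-1β and glucosamine, at 0.61 ± 0.10 (adjusted p = 0.00985), a call lost without glucosamine array a (adjusted p = 0.137) or b (0.0809), under quantile normalization (0.0554) and in a fit to the 2 groups alone (0.0708).

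Psmb8 had a signal of 72.9, 60.9, 64.8 and 45.1 with glucosamine + IL-1β, 44.9 and 41.2 with glucosamine, 46.8, 48.2, 53.3 and 28.9 with IL-1β and 20.3, 19.7 and 19.8 in untreated cells. Every treated array lay above the untreated ones, and the replicate d array was the lowest of its group with IL-1β and with glucosamine + IL-1β. Against untreated cells Psmb8 was 3.01-fold higher with glucosamine + IL-1β (log2 change 1.59 ± 0.23, limma adjusted p = 2.78e-04), 2.16-fold higher with glucosamine (1.11 ± 0.27, adjusted p = 0.0167) and 2.17-fold higher with IL-1β (1.12 ± 0.23, adjusted p = 0.00334). Between glucosamine + IL-1β and IL-1β the change was 0.48, with a 95% interval of 0.01 to 0.94, and did not pass the test (adjusted p = 0.145). Under quantile normalization the calls for Psmb8 were lost with IL-1β (0.87, adjusted p = 0.159) and with glucosamine (1.12, adjusted p = 0.183), and that with glucosamine was lost without glucosamine array a (adjusted p = 0.121) or b (0.0846).

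Psmb10 had a signal of 79.2, 84.2, 87.7 and 56.4 with glucosamine + IL-1β, 69.0 and 73.6 with glucosamine, 65.6, 89.1, 91.5 and 60.0 with IL-1β and 63.7, 60.7 and 68.2 in untreated cells, with the IL-1β arrays overlapping the untreated ones. Its log2 change with IL-1β was 0.23 (95% interval -0.17 to 0.63, limma adjusted p = 0.457).

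Both subunits of PA28 rose with IL-1β and both were lower with glucosamine + IL-1β than with IL-1β alone. The signal of Psme1, PA28 alpha, was 530.3, 523, 543 and 472 with glucosamine + IL-1β, 459 and 438 with glucosamine, 878, 807, 815 and 827 with IL-1β and 509, 509.7 and 522 in untreated cells. The IL-1β arrays lay far above the rest, which spanned 438 to 543. Psme1 was 1.62-fold higher with IL-1β than in untreated cells (log2 change 0.69 ± 0.06, limma adjusted p = 2.56e-06) and 1.61-fold lower with glucosamine + IL-1β than with IL-1β (-0.69 ± 0.05, adjusted p = 2.03e-06). Both calls rest on its bright probe set: averaged with the second one, which was at or below the floor on 9 of 13 arrays, the changes were 0.44 (adjusted p = 0.162) and -0.09 (0.857).

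For Psme2, PA28 beta, the signal was 291, 294, 307 and 293 with glucosamine + IL-1β, 269.5 and 245 with glucosamine, 718, 665, 517 and 519 with IL-1β and 359, 383 and 373 in untreated cells. The 4 groups did not overlap, and with IL-1β arrays a and b lay above c and d. Psme2 was 1.61-fold higher with IL-1β than in untreated cells (log2 change 0.69 ± 0.11, limma adjusted p = 5.05e-04) and 2.02-fold lower with glucosamine + IL-1β than with IL-1β (-1.01 ± 0.10, adjusted p = 1.64e-05). With glucosamine it was 1.45-fold lower than in untreated cells (-0.53 ± 0.13, adjusted p = 0.0152), a call lost without glucosamine array a (adjusted p = 0.0516), glucosamine array b (0.146) or untreated array b (0.0538). With glucosamine + IL-1β against untreated cells its log2 change was -0.33 (adjusted p = 0.0463), a call lost when any 1 of the 9 arrays outside the IL-1β group was left out (adjusted p of 0.0595 to 0.149), with scaling to a common 75th percentile (0.0554), without the filter on low values (0.0581) and without the variance trend (0.0839).

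The other regulators, by their brightest probe sets, passed the test in no comparison. Psme4, the activator PA200, changed by -0.27 with IL-1β (95% interval -0.57 to 0.03) on its brightest probe set, while another of its 3 probe sets was called lower with IL-1β, at -1.23 (limma adjusted p = 0.00326), and with glucosamine + IL-1β, at -0.93 (0.0174), each against untreated. Psmf1, the inhibitor PI31, changed by -0.33 with IL-1β (95% interval -0.69 to 0.02).

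**Figure D2:**
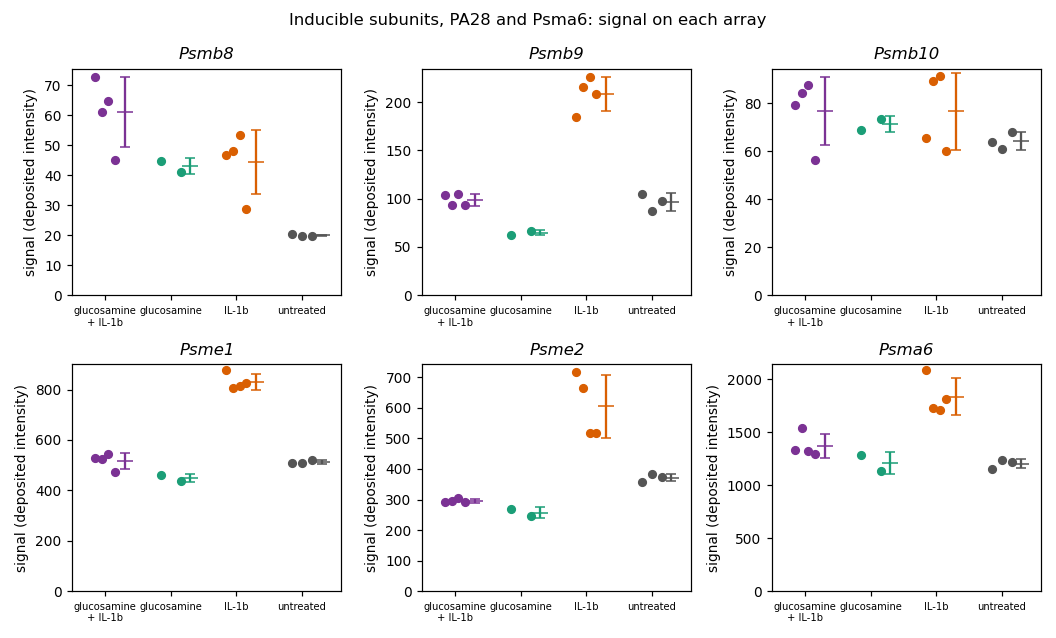
Deposited signal on each array for the 3 inducible subunits, both PA28 subunits and Psma6, with points for arrays and bars for mean ± SD of each group, on axes that start at 0. Psmb9, Psme1, Psme2 and Psma6 are highest on the 4 IL-1β arrays, where Psmb9 spans 185 to 226, while Psmb8 is lowest in untreated cells, at 19.7 to 20.3, and the groups of Psmb10 overlap.

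Leukocytes express the inducible subunits without stimulation, so markers of leukocytes were also read. Of 10 measured, 2 were called higher with IL-1β, 0 with glucosamine and 1 with glucosamine + IL-1β, each against untreated. These shares are 20%, 0% and 10%, where all genes had 15.5%, 10.4% and 16.6%, and 0 markers were called lower. The summed signal of 10 measured leukocyte markers of 12 was 98.5 to 181 with glucosamine + IL-1β, 54.4 to 70.5 with glucosamine, 263 to 335 with IL-1β and 2.97 to 21.4 in untreated cells. With IL-1β most of it came from Cd68, which averaged 45.4 with glucosamine + IL-1β, 34.7 with glucosamine, 188 with IL-1β and -15.2 in untreated cells. Itgb2 averaged 34.2 with IL-1β and 4.55 or less in the other groups. The summed signal of 3 measured endothelium markers of 4 was 54.8 to 136 with glucosamine + IL-1β, 51.9 to 55.1 with glucosamine, 89.4 to 187 with IL-1β and 46.5 to 64.1 in untreated cells. The upper ends came from the replicate d arrays. Without them, the endothelium sum reached 74.2 with glucosamine + IL-1β and 109.99 with IL-1β, and the leukocyte sum reached 106 with glucosamine + IL-1β and 289 with IL-1β. Ptprc (CD45), the defining marker of leukocytes, averaged 2.71 with glucosamine + IL-1β, 3.86 with glucosamine, 8.18 with IL-1β and 5.09 in untreated cells, near the floor of 5.71 that was set on all values. Of the 10 leukocyte markers, 1 was at or below the floor on every array with glucosamine + IL-1β, 8 with glucosamine, 1 with IL-1β and 7 in untreated cells. The part of such cells in the changes of Psmb9, Psmb8, Psme1 and Psme2 was not tested, and in these whole-culture samples a change in the number of cells of a type and a change in RNA per cell cannot be told apart.

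In the rat genome Psmb8 and Psmb9 lie beside the peptide transporter genes Tap1 and Tap2, Psmb8 between them and Psmb9 next to Tap1, in the RefSeq annotation of GRCr8. The promoters of the 3 inducible and both PA28 genes are shown here, since these genes are the ones known to respond to interferon and 4 of them changed. Each runs from 250 bases before the transcription start to 30 bases after it, from the RefSeq promoter table of GRCr8, written 5′ to 3′ on the gene's strand, and the capitals mark matches on either strand to the core of the interferon-stimulated response element (ISRE), which is GAAA, any 2 bases and GAAA again.
Psmb8, chr20:4657002-4657281, minus strand: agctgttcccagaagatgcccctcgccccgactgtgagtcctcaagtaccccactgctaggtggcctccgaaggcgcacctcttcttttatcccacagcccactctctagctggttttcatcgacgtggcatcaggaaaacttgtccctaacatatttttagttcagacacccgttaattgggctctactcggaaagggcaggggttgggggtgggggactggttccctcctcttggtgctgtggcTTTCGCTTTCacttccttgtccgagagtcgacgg
Psmb9, chr20:4668750-4669029, plus strand: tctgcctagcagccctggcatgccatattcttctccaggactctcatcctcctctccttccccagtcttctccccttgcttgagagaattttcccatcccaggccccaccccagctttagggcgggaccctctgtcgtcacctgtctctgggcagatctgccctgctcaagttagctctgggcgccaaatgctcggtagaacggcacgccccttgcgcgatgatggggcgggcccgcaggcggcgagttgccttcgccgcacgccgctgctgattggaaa
Psmb10, chr19:50743263-50743542, minus strand: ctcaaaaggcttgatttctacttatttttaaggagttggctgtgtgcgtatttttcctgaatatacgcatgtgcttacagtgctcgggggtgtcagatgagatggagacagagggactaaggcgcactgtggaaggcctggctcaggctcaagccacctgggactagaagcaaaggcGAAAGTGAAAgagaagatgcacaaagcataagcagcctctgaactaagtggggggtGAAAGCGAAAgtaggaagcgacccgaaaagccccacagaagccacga
Psme1, chr15:33038721-33039000, plus strand: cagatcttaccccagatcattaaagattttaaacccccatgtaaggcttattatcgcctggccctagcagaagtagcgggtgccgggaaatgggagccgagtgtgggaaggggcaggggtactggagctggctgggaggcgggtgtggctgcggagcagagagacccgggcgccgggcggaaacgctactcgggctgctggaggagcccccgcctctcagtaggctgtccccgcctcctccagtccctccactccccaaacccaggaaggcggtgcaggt
Psme2, chr15:33052722-33053001, minus strand: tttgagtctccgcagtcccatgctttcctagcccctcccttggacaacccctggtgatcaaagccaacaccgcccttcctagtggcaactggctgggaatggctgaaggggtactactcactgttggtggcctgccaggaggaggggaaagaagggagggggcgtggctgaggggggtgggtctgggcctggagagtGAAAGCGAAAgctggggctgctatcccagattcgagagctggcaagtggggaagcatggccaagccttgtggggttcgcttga
The ISRE core occurred at 2 places in Psmb10, at 73 to 64 and at 17 to 8 bases before the start, once in Psme2, at 53 to 44 bases before it, and once in Psmb8, across the start. It was in neither the Psmb9 nor the Psme1 window. Over 300-base windows that also hold the next 20 bases, 7 of 42 proteasome genes with a promoter in the table held the ISRE core (16.7%), against 3.92% of 33361 different promoters. The further 4 were Psma4, Psmb3, Psmd7 and Psmg4. The antioxidant response element core TGACNNNGC, which can overlap AP-1 sites, was in 7 of the 42 (16.7%) against 12.1%, and CCAAT in 22 (52.4%) against 37.5%. A κB motif was in 1 of them, Psmb2 (2.38%), against 4.19%. Psma7, Psmd6, Psmd12 and Psmd14 had no promoter in the table. A match is a string of letters and binding was not measured here.

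Of the 13 constitutive alpha and beta subunits of the 20S core, 1 was called higher and 0 lower with IL-1β, 1 higher and 0 lower with glucosamine, 1 higher and 0 lower with glucosamine + IL-1β, each against untreated, and 2 higher and 1 lower with glucosamine + IL-1β against IL-1β. As shares these are 7.69% higher against untreated in each case, where all genes had 15.5%, 10.4% and 16.6%, and 15.4% higher against IL-1β, close to the 15.8% of all genes.

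Psma6 was the exception among the 7 alpha subunits. Its signal was 1331, 1537, 1321 and 1289 with glucosamine + IL-1β, 1286 and 1137 with glucosamine, 2089.7, 1729, 1705 and 1816 with IL-1β and 1156, 1240.0 and 1216 in untreated cells, so that all 4 IL-1β arrays lay above all others. Psma6 was 1.52-fold higher with IL-1β than in untreated cells (log2 change 0.60 ± 0.09, limma adjusted p = 2.78e-04) and 1.34-fold lower with glucosamine + IL-1β than with IL-1β (-0.42 ± 0.08, adjusted p = 0.00233). In GRCr8 a coding gene next to Psma6 is Nfkbia, which encodes IκB alpha, the inhibitor of NF-κB that the proteasome degrades, and which is given here for that position. Nfkbia had a signal of 402, 459, 401 and 334 with glucosamine + IL-1β, 96.7 and 66.7 with glucosamine, 1125, 1169.7, 914 and 1225 with IL-1β and 117, 143 and 120.3 in untreated cells, and changed by 3.12 with IL-1β (adjusted p = 3.12e-08) and by -1.47 with glucosamine + IL-1β against IL-1β (adjusted p = 1.13e-05). Whether the position bears on either gene's change was not tested. The other 6 alpha subunits changed with IL-1β by -0.16 to 0.05, none past the test.

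Among the constitutive beta subunits, Psmb4, a structural subunit, rose with glucosamine. Its signal was 1942, 2199, 1794 and 1906 with glucosamine + IL-1β, 1975 and 1859 with glucosamine, 1602, 1582, 1453 and 1543 with IL-1β and 1433, 1540.4 and 1516 in untreated cells, all 6 arrays with glucosamine lying above the other 7. Psmb4 was 1.31-fold higher with glucosamine + IL-1β than in untreated cells (log2 change 0.39 ± 0.07, limma adjusted p = 0.002) and 1.27-fold higher than with IL-1β (0.34 ± 0.07, adjusted p = 0.00287). With glucosamine alone it was 1.28-fold higher than in untreated cells (0.36 ± 0.09, adjusted p = 0.0158), a call lost without glucosamine array a (adjusted p = 0.14), glucosamine array b (0.059) or untreated array a (0.0593). Psmb1, another structural subunit, was higher by 0.26 with glucosamine + IL-1β than with IL-1β (adjusted p = 0.0333), and its call was lost without array a or b of glucosamine + IL-1β, any IL-1β array or untreated array c (adjusted p of 0.0507 to 0.0733), with scaling to a common 75th percentile (0.0542), without the variance trend (0.0716) and in a fit to the 2 groups alone (0.091).

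Psmb5 and Psmb7, the catalytic subunits that Psmb8 and Psmb10 replace, passed the test in no comparison, and Psmb6 was not tested. Psmb5 changed by 0.07 with IL-1β (95% interval -0.13 to 0.27) and by 0.17 with glucosamine + IL-1β (-0.04 to 0.37), and Psmb7 by 0.28 (0.05 to 0.50) and 0.11 (-0.11 to 0.33), each against untreated. The ratio of an inducible subunit to the one it replaces was then compared within arrays, in 10 exact two-sided permutation tests over arrays. Psmb8 rose against Psmb5 by 1.42 on the log2 scale with glucosamine + IL-1β over untreated (exact permutation p = 0.0286, the smallest that 4 against 3 arrays allow, adjusted p = 0.2), by 1.05 with IL-1β (exact p = 0.0571, adjusted 0.2) and by 0.89 with glucosamine (exact p = 0.1, the smallest possible, adjusted 0.2), with no overlap between treated and untreated arrays. Between glucosamine + IL-1β and IL-1β the ratio differed by 0.38 (exact p = 0.0857, adjusted 0.2). The ratio of Psmb10 to Psmb7 changed by -0.05 to 0.18 over the 5 comparisons (adjusted p of 0.429 to 0.8). A ratio shows unequal change of the pair of signals and not which subunit is more abundant, and no ratio passed after adjustment over the 10 tests.

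Of the 17 subunits of the 19S cap, 5 were called higher and 0 lower with IL-1β, 2 higher and 0 lower with glucosamine, and 5 higher and 0 lower with glucosamine + IL-1β, each against untreated. With glucosamine + IL-1β against IL-1β, 1 was higher and 1 lower. The shares called higher against untreated were 29.4%, 11.8% and 29.4%, where all genes had 15.5%, 10.4% and 16.6%. Against IL-1β the shares were 5.88% higher and 5.88% lower, where all genes had 15.8% and 14.8%. None of the 6 ATPases Psmc1 to Psmc6 was called except Psmc6 with IL-1β.

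In the base, Psmd1, the scaffold subunit Rpn2, rose with IL-1β. Its signal was 319, 299, 317 and 274 with glucosamine + IL-1β, 311 and 318 with glucosamine, 379, 351, 371 and 550.2 with IL-1β and 235, 243 and 278 in untreated cells, with array d the highest of the IL-1β arrays. Psmd1 was 1.62-fold higher with IL-1β than in untreated cells (log2 change 0.69 ± 0.14, limma adjusted p = 0.00251) and 1.35-fold lower with glucosamine + IL-1β than with IL-1β (-0.43 ± 0.13, adjusted p = 0.0277), a call lost without glucosamine + IL-1β array b (adjusted p = 0.0651) or d (0.0715) or in a fit to the 2 groups alone (0.091).

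Psmd2, the scaffold subunit Rpn1, had a signal of 925, 1033, 869.8 and 918 with glucosamine + IL-1β, 938 and 875 with glucosamine, 894, 932, 972 and 1036 with IL-1β and 765, 793 and 812 in untreated cells. Each treated array lay above the untreated ones. Psmd2 was higher by 0.28 with IL-1β (limma adjusted p = 0.0115) and by 0.24 with glucosamine + IL-1β (0.0234), calls that were lost without untreated array a (adjusted p = 0.0536 and 0.0946) and, for glucosamine + IL-1β, without untreated array b (0.0685) or without the variance trend (0.0707). The ATPase Psmc6 was higher by 0.30 with IL-1β (adjusted p = 0.0247), with a signal of 919, 844, 756 and 900.2, against 652, 693 and 731 in untreated cells. That call was lost without IL-1β array a or d or untreated array a or b (adjusted p of 0.0595 to 0.11) or without the variance trend (0.0582), and 2 dimmer probe sets of Psmc6 changed by -0.05 and -0.08.

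In the lid, Psmd11, the subunit Rpn6, rose in all 3 treated groups. Its signal was 992, 1134, 933 and 1112 with glucosamine + IL-1β, 1000.0 and 840.2 with glucosamine, 1119, 1016, 877 and 901 with IL-1β and 642, 709 and 688 in untreated cells, every treated array lying above the untreated ones. Psmd11 was 1.53-fold higher with glucosamine + IL-1β (log2 change 0.61 ± 0.10, limma adjusted p = 8.53e-04), 1.35-fold with glucosamine (0.43 ± 0.12, adjusted p = 0.0341) and 1.43-fold with IL-1β (0.52 ± 0.10, adjusted p = 0.00261) than in untreated cells. The call with glucosamine was lost without glucosamine array a (adjusted p = 0.315) or untreated array a (0.112), b (0.064) or c (0.0802), in a fit to the 2 groups alone (0.0537) and without the variance trend (0.0686). A second probe set of Psmd11 changed by 0.47, 0.33 and 0.27 in the same order and passed the test in none of them.

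Psmd12, the lid subunit Rpn5, had a signal of 509, 538, 438 and 583 with glucosamine + IL-1β, 459 and 415 with glucosamine, 606, 502, 456 and 541 with IL-1β and 321, 383 and 385 in untreated cells, with no overlap between treated and untreated arrays. It was higher than in untreated cells by 0.51 ± 0.12 with glucosamine + IL-1β (limma adjusted p = 0.00711) and by 0.53 ± 0.12 with IL-1β (0.00515), and by 0.27 with glucosamine, which did not pass (95% interval -0.03 to 0.58).

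Psmd7, the subunit Rpn8 that pairs with the deubiquitinase Psmd14, went with glucosamine like Psmb4. The signal of Psmd7 was 719, 808, 701 and 647 with glucosamine + IL-1β, 739 and 675 with glucosamine, 602, 579, 561 and 616 with IL-1β and 513, 526 and 568 in untreated cells, and all 6 arrays with glucosamine lay above the other 7. It was higher with glucosamine + IL-1β by 0.42 than in untreated cells (limma adjusted p = 0.00137) and by 0.28 than with IL-1β (0.0109), and with glucosamine by 0.40 than in untreated cells (0.00993), a call lost without glucosamine array a (adjusted p = 0.114). These are values of its brightest probe set. A second, dimmer one read 489 to 589 with glucosamine + IL-1β, 590 and 526 with glucosamine, 422 to 517 with IL-1β and 431 to 474 in untreated cells. On that probe set the glucosamine + IL-1β and IL-1β arrays overlapped. Psmd3, the subunit Rpn3, was higher by 0.42 with glucosamine + IL-1β than in untreated cells (adjusted p = 0.0152), with a signal of 205, 180.4, 204 and 172, against 144, 140.3 and 141, and its call was lost without untreated array b (adjusted p = 0.0551) or c (0.0534). Psmd14 itself, the lid's deubiquitinase Rpn11, changed by 0.10 with IL-1β (95% interval -0.05 to 0.25).

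Of the 7 assembly factors, 2 were called higher and 2 lower with IL-1β, 1 and 1 with glucosamine and 1 and 1 with glucosamine + IL-1β, each against untreated, and 2 higher and 1 lower with glucosamine + IL-1β against IL-1β. With IL-1β these shares are 28.6% each way, where all genes had 15.5% and 15.3%. With glucosamine and with glucosamine + IL-1β they are 14.3% each way, where all genes had 10.4% and 9.37%, and 16.6% and 14.7%. Against IL-1β they are 28.6% higher and 14.3% lower, where all genes had 15.8% and 14.8%. Psmd10 (gankyrin), a chaperone of the base, went up with IL-1β and down with glucosamine, and Psmg3 and Psmg4, which act as a pair in building the alpha ring, went the other way with IL-1β.

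Psmd10 had a signal of 347, 460.0, 412 and 349 with glucosamine + IL-1β, 369 and 318 with glucosamine, 819, 764, 798 and 714 with IL-1β and 483, 482 and 515 in untreated cells. All IL-1β arrays lay above the untreated ones, and all 6 arrays with glucosamine lay below them. Psmd10 was 1.57-fold higher with IL-1β than in untreated cells (log2 change 0.65 ± 0.10, limma adjusted p = 4.71e-04) and 1.99-fold lower with glucosamine + IL-1β than with IL-1β (-0.99 ± 0.09, adjusted p = 1.15e-05). With glucosamine it was 1.44-fold lower than in untreated cells (-0.53 ± 0.12, adjusted p = 0.011), a call lost without glucosamine array b (adjusted p = 0.141). With glucosamine + IL-1β its log2 change against untreated cells was -0.34 (adjusted p = 0.0268), a call lost without glucosamine + IL-1β array a or d or any 1 untreated array (adjusted p of 0.0650 to 0.106), without the variance trend (0.0562) and in a fit to the 2 groups alone (0.0759).

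The signal of Psmg3 was 214, 263, 218 and 162 with glucosamine + IL-1β, 245 and 217 with glucosamine, 95.8, 127, 126 and 96.1 with IL-1β and 182, 182 and 194 in untreated cells. The IL-1β arrays were the lowest, and array d the lowest of the glucosamine + IL-1β arrays. Psmg3 was 1.69-fold lower with IL-1β than in untreated cells (log2 change -0.75 ± 0.15, limma adjusted p = 0.00339) and 1.92-fold higher with glucosamine + IL-1β than with IL-1β (0.94 ± 0.14, adjusted p = 4.81e-04).

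For Psmg4 the signal was 341, 345, 356 and 287 with glucosamine + IL-1β, 350.0 and 351 with glucosamine, 166, 201, 231 and 208 with IL-1β and 275, 285 and 267 in untreated cells, again lowest on the IL-1β arrays. It was 1.38-fold lower with IL-1β than in untreated cells (log2 change -0.46 ± 0.10, limma adjusted p = 0.00627) and 1.65-fold higher with glucosamine + IL-1β than with IL-1β (0.73 ± 0.10, adjusted p = 1.74e-04). Psmg1 and Psmg2, the other pair of alpha-ring chaperones, passed the test in no comparison. With IL-1β, Psmg1 changed by -0.30 (95% interval -0.63 to 0.02) and Psmg2 by -0.01 (-0.41 to 0.40).

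Psmd5, a chaperone of the base that holds off the 20S core, rose in all 3 treated groups. Its signal was 401, 468, 454 and 438 with glucosamine + IL-1β, 474 and 438 with glucosamine, 426, 424, 405 and 414 with IL-1β and 292, 306 and 294 in untreated cells, with every treated array above the untreated ones. Psmd5 was 1.48-fold higher with glucosamine + IL-1β (log2 change 0.57 ± 0.06, limma adjusted p = 2.13e-05), 1.53-fold with glucosamine (0.62 ± 0.07, adjusted p = 9.73e-05) and 1.40-fold with IL-1β (0.49 ± 0.06, adjusted p = 6.03e-05) than in untreated cells. Between glucosamine + IL-1β and IL-1β it changed by 0.08 (95% interval -0.04 to 0.19). Psmd9, the remaining base chaperone, passed the test in no comparison.

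**Figure D3:**
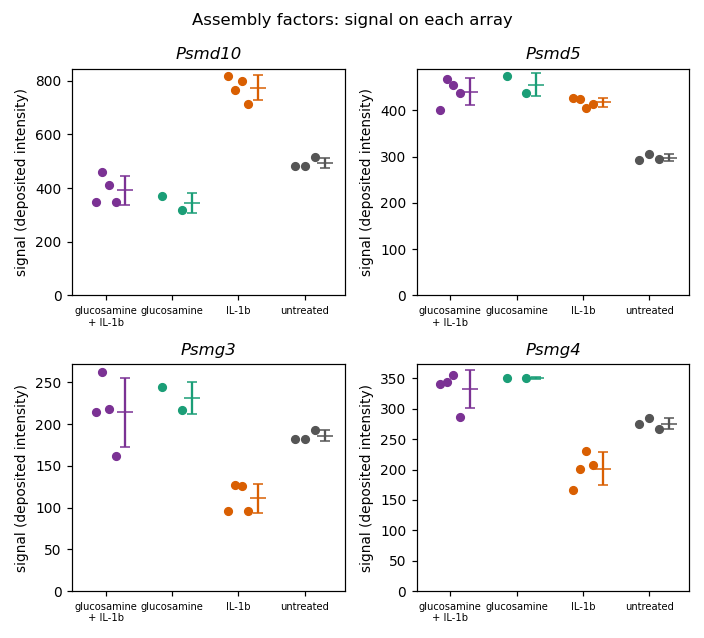
Deposited signal on each array for 4 assembly factors, with points for arrays and bars for mean ± SD of each group, on axes that start at 0. Psmd10 is highest on the IL-1β arrays, at 714 to 819, Psmg3 and Psmg4 are lowest there, and Psmd5 is lowest in untreated cells, at 292 to 306.

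Whether the response to IL-1β differed in the presence of glucosamine was tested as the interaction in the same fit, the log2 change of glucosamine + IL-1β over glucosamine minus that of IL-1β over untreated. Of the 46 genes, 0 had a higher and 4 a lower response with glucosamine present, against 5.11% and 6.68% of all genes. These were Psmd5 (-0.54 ± 0.09, limma adjusted p = 0.00218), Psme1 (-0.49 ± 0.09, 0.00323), Psmd1 (-0.75 ± 0.20, 0.0438) and Psmb9 (-0.50 ± 0.14, 0.0497). With glucosamine present, IL-1β changed Psmd5 by -0.05, Psme1 by 0.20, Psmd1 by -0.06 and Psmb9 by 0.61. For Psmd5 the difference comes with a rise under glucosamine alone, and for Psme1 with none past the test. The call of Psmb9 was lost when any 1 array other than IL-1β a or untreated a was left out (adjusted p of 0.0561 to 0.204), and that of Psmd1 when any 1 other than IL-1β b, c or d was (0.0531 to 0.164). Both were also lost under quantile normalization (0.0645 and 0.052) and without the variance trend (0.0825 and 0.0762). The calls of Psmd5 and Psme1 held without any 1 array, and that of Psme1 was lost with the mean over its 2 probe sets (0.03, adjusted p = 0.999). For Psme2 and Psmd10, with the lower calls of glucosamine alone above, the interaction was -0.48 (adjusted p = 0.109) and -0.46 (0.0967).

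**Figure D4:**
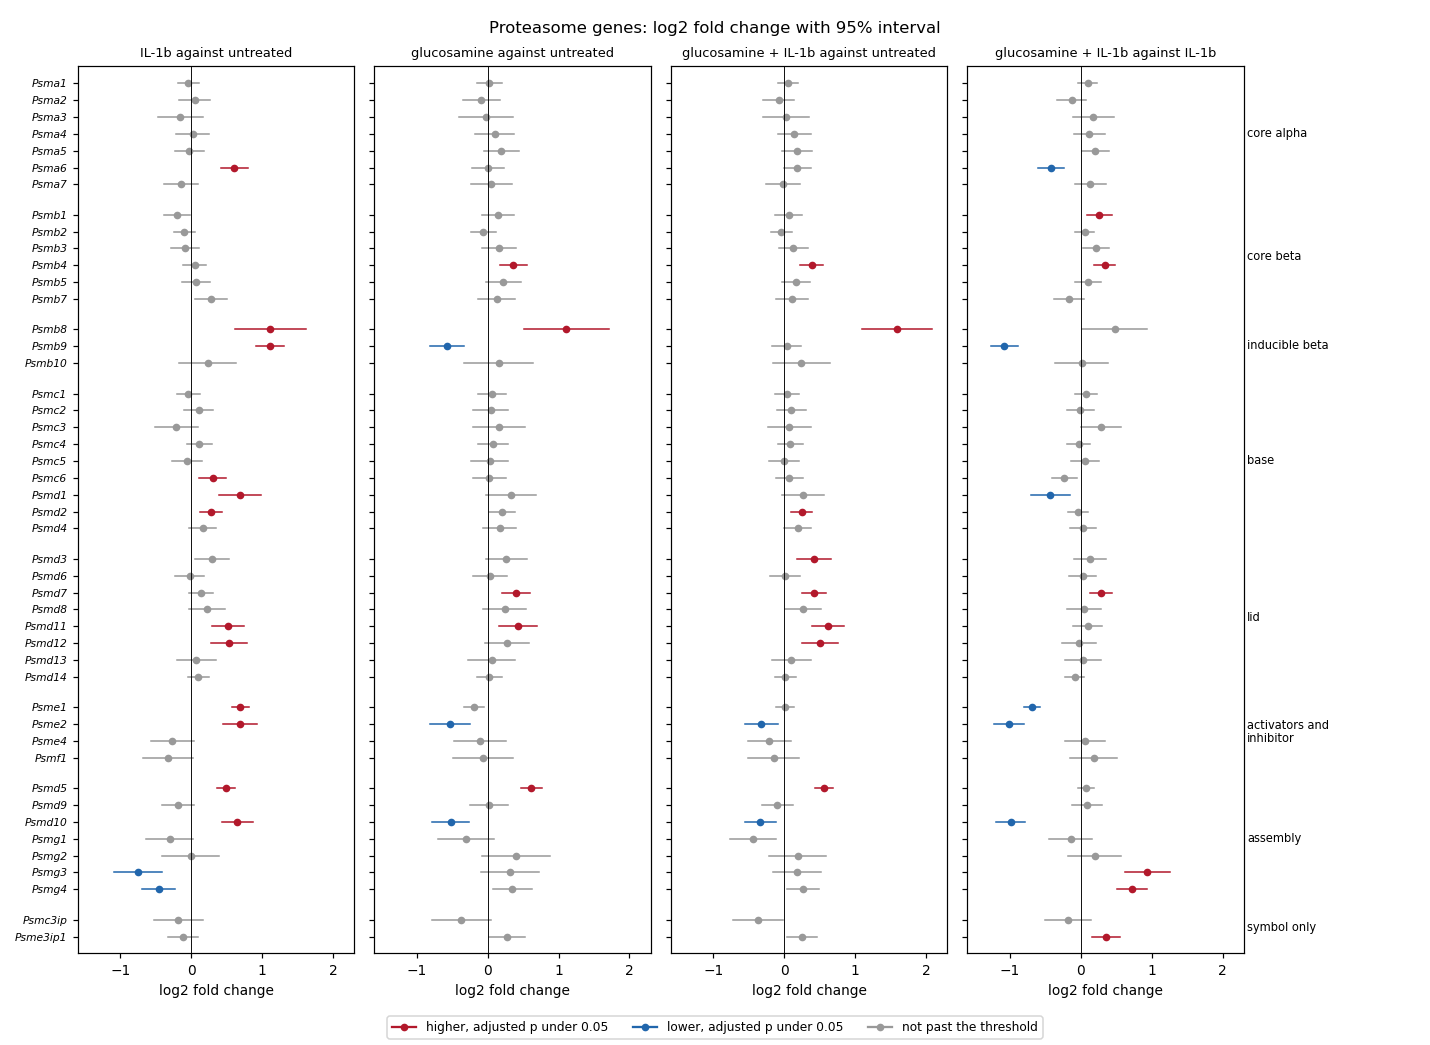
Log2 fold change (points) with 95% interval (lines) of the 46 genes in 4 comparisons, by class, with red for higher and blue for lower at an adjusted p under 0.05 and grey for the rest. The changes farthest from 0 are those of Psmb8, at 1.59 with glucosamine + IL-1β against untreated, and of Psmb9, Psme2 and Psmd10, and most intervals of the core, base and lid include 0.

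The 2 genes that match the pattern by symbol only are Psmc3ip, which acts in meiotic recombination, and Psme3ip1, which binds the activator Psme3. Psme3ip1 was higher by 0.36 ± 0.09 with glucosamine + IL-1β than with IL-1β (limma adjusted p = 0.0115), with a signal of 239, 301, 241 and 214, against 188, 192, 196 and 192 with IL-1β. Psmc3ip passed the test in no comparison. Over all members, 9 genes had 13 further tested probe sets, and in their 78 comparisons 10 calls of the brightest probe set were lost, 2 were gained, both in Psme4, and 0 were opposite.

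Other genes of the proteasome system followed in part. Of 16 measured proteasome-associated genes without a Psm symbol, 8 were higher and 0 lower with IL-1β, 3 and 0 with glucosamine and 6 and 0 with glucosamine + IL-1β, each against untreated, with a median log2 change of 0.33, 0.18 and 0.26. The shares called higher were 50%, 18.8% and 37.5%, where all genes had 15.5%, 10.4% and 16.6%. Zfand2a (AIRAP), a stress-induced proteasome binder, averaged 290.4 ± 41.5 with glucosamine + IL-1β (SD, n = 4), 287 ± 29.1 with glucosamine (n = 2), 305 ± 73.9 with IL-1β (n = 4) and 71.6 ± 6.01 in untreated cells (n = 3). It changed by 2.01, 2.00 and 2.06 against untreated (limma adjusted p of 4.91e-06 to 7.02e-05). Usp14, the deubiquitinase that docks on the base, was higher by 0.33 with IL-1β than in untreated cells (adjusted p = 0.0048) and lower with glucosamine + IL-1β than with IL-1β (-0.32, adjusted p = 0.00391). Pomp, the maturation factor of the core, was also lower with glucosamine + IL-1β than with IL-1β (-0.29, adjusted p = 0.00426). Of Uba1 and Uba6, the ubiquitin-activating enzymes, Uba1 was higher with glucosamine + IL-1β than in untreated cells and neither was called in the other comparisons.

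Nfe2l1 encodes NRF1, the transcription factor known to raise proteasome genes when proteasome activity is short. The signal of Nfe2l1 was 407, 397, 327 and 289.6 with glucosamine + IL-1β, 331 and 475 with glucosamine, 117, 148, 186 and 188 with IL-1β and 233, 209 and 229 in untreated cells. It was higher by 0.83 with glucosamine than in untreated cells (limma adjusted p = 0.026) and by 1.17 with glucosamine + IL-1β than with IL-1β (3.67e-04). Of 14 genes of the NRF1 axis, which include its processing factors and partners as well as Nfe2l2 (NRF2) and Bach1, 8 were higher and 1 lower with IL-1β, the same numbers with glucosamine, and 9 higher and 1 lower with glucosamine + IL-1β, each against untreated. The shares called higher were 57.1%, 57.1% and 64.3%, where all genes had 15.5%, 10.4% and 16.6%. Ngly1, which encodes a processing factor, was below the untreated arrays (342 to 347) on every treated array. It read 206 to 237 with glucosamine + IL-1β, 260 and 244 with glucosamine and 192 to 223 with IL-1β. Sel1l, of the machinery that returns proteins from the endoplasmic reticulum to the proteasome, was higher by 1.22 with glucosamine (adjusted p = 3.68e-04), and the partner Maff by 3.47 with IL-1β (2.50e-09). Of 9 targets of the related factor NRF2, 8 were higher with IL-1β, 6 with glucosamine and 7 with glucosamine + IL-1β, and 0 lower in each. These shares are 88.9%, 66.7% and 77.8%, where all genes had 15.5%, 10.4% and 16.6%. Slc7a11, the cystine transporter, changed most with IL-1β, by 2.03 (adjusted p = 2.82e-08).

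The peptides that proteasomes make are loaded on MHC class I. Of 12 measured genes of that pathway, 6 were higher and 0 lower with IL-1β, 4 and 0 with glucosamine and 7 and 0 with glucosamine + IL-1β, each against untreated, and 3 higher and 3 lower with glucosamine + IL-1β against IL-1β. The shares called higher against untreated were 50%, 33.3% and 58.3%, where all genes had 15.5%, 10.4% and 16.6%. Against IL-1β the shares were 25% higher and 25% lower, where all genes had 15.8% and 14.8%. Tap1, which neighbours Psmb9, had a signal of 110.4, 115, 125 and 82.2 with glucosamine + IL-1β, a mean of 100.4 with glucosamine (n = 2), 104, 113, 119 and 89.7 with IL-1β and 62.3, 64.0 and 58.5 in untreated cells. Every treated array of Tap1 lay above the untreated ones, as for its other neighbour Psmb8 and unlike Psmb9, and Tap1 changed by 0.80, 0.71 and 0.78 (limma adjusted p of 0.00126 to 0.0139). Nlrc5, the activator of MHC class I and immunoproteasome genes, had a signal of 70.1, 43.1, 39.4 and 31.0 with IL-1β, and at most 8.03 with glucosamine + IL-1β, 6.30 with glucosamine and 10.2 in untreated cells. The list also holds Calr, Canx and Pdia3, general folding factors of the endoplasmic reticulum, so its counts are not of class I genes alone. Calr had a signal of 2858 and 3074 with glucosamine and 1801 to 1980 in untreated cells, and Pdia3 2888 and 2991 against 1866 to 2042.

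Interferon-inducible genes as a list did not rise together. Of 17 measured, 3 were higher and 3 lower with IL-1β, 0 and 2 with glucosamine and 1 and 3 with glucosamine + IL-1β, each against untreated. The shares higher and lower were 17.6% and 17.6% with IL-1β, where all genes had 15.5% and 15.3%. With glucosamine they were 0% and 11.8%, where all genes had 10.4% and 9.37%. With glucosamine + IL-1β they were 5.88% and 17.6%, where all genes had 16.6% and 14.7%. Irf1, a factor that binds the ISRE, had a signal of 59.8, 69.3, 70.5 and 28.2 with glucosamine + IL-1β, 71.1 and 68.6 with glucosamine, 184, 299.9, 172 and 212 with IL-1β and 105, 94.4 and 80.6 in untreated cells. It was higher by 1.19 with IL-1β than in untreated cells (limma adjusted p = 0.0111) and lower with glucosamine + IL-1β than with IL-1β (-1.98, adjusted p = 2.33e-04). The chemokine Cxcl10 was higher by 2.80 with IL-1β (adjusted p = 3.09e-06) and Ifit2, an antiviral effector, was lower (-1.85, adjusted p = 6.48e-08). Rsad2, another antiviral effector, was highest with glucosamine + IL-1β, with a signal of 42.8 to 60.5. It was 10.0 and 7.73 with glucosamine, 6.33 to 13.2 with IL-1β and under the floor of 5.71 in untreated cells. Of the 17 genes, 3 were higher and 3 lower with glucosamine + IL-1β than with IL-1β. That is 17.6% each way, near the 15.8% and 14.8% of all genes. All 9 genes of NF-κB and its feedback were higher with IL-1β, where 15.5% of all genes were. Of the 9, 8 were lower with glucosamine + IL-1β than with IL-1β (88.9%, against 14.8% of all genes). With glucosamine + IL-1β all 9 were still higher than in untreated cells, where 16.6% of all genes were, with a median log2 change of 1.21. Of the 9, 5 were higher than with glucosamine (55.6%, against 1.45% of all genes).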

How the data were processed

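RNA of second-passage rat chondrocytes was hybridised to 13 Affymetrix arrays, in 4 groups taken from the sample titles. The deposited table holds 1 intensity per probe set and array, which the authors made with MAS5 version 5 according to the submitters' processing notes, and by their methods with Probe Profiler, which down-weights uninformative probe pairs and scales each array globally. Arrays that failed quality assessment had been left out. No read depth applies, and the number of arrays, 2 to 4 in a group, limits the precision.

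Of 31099 rows, 57 control rows were left out. Values were floored at their 25th percentile (5.71), and of 31042 probe sets, 1779 at the floor on every array were left out and 29263 tested. Log2 values were fitted with limma 3.58.1 in R 4.3.3 (all 4 groups in 1 model, moderated variance with a trend, Benjamini-Hochberg adjustment). Probe sets were named from the platform annotation, in which 20826 had 1 gene, 436 several and 9780 none, and 20758 were found by gene ID in a RefSeq gene table (GRCr8). The scripts were tested on simulated data, and figures drawn with matplotlib 3.10.9. In the simulation, over all 29263 probe sets with the spread of the data, 36% of 100 true log2 changes of 1 were called for IL-1β against untreated. Of 100 changes of 2, 59% were called. The changed probe sets were drawn at random, dim ones included, and all others were left unchanged. In the data 7067 probe sets were called for IL-1β against untreated, so the Benjamini-Hochberg cut-off was stricter in the simulation. These shares therefore do not give the share of true changes found among the proteasome genes. A gene that was not called is still not shown to be unchanged.

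All members with a role could be named. Values by array were given for the inducible subunits, PA28 and at most 4 further members of a class, namely the called ones whose change was farthest from 0, and at most 4 genes of each other list, chosen in the same way. Nfkbia was named as the neighbour of Psma6, and Cd68, Itgb2 and Ptprc as markers, after their values were seen. Rsad2, Calr, Canx, Pdia3 and Ngly1 were also named after their values were seen. The members and lists were chosen with earlier results of these data known. Alternatives were other floors, filters, normalizations, variance models, samples in the fit, a replicate block, the mean over probe sets, the methods' test (analysis of variance on linear signal, then Tukey's test) and leaving out arrays. The planned ratio of Psmb9 to Psmb6 was not computed, since Psmb6 had no probe set of its own. Replicate letters did not pair the arrays, with a mean correlation of deviations of 0.10 over 16 pairs of the same letter (-0.17 to 0.80).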

Additional observations from a re-analysis of the deposited data

Results flagged for a closer look

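In 3 cases, 1 array lay apart from the others of its group of 4. Psmb7 had a signal of 714 on array d of glucosamine + IL-1β, where the other 3 arrays read 885 to 907. Psmg2 had 156 on the same array, against 272 to 283 on the others. Psmc3, an ATPase of the base, had 435 on array a of IL-1β, against 612 to 656 on the others. The gap to the nearest array exceeded the limit of Dixon's test at the 95% level in these 3 of 92 sets of a gene and a group, and chance gives about 1 in 20.

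The response to IL-1β differed by the presence of glucosamine in 4 of the 46 genes, all lower with glucosamine present, where 6.68% of all genes were called so. The interaction was -0.54 for Psmd5, -0.49 for Psme1, -0.75 for Psmd1 and -0.50 for Psmb9 on the log2 scale, with limma adjusted p of 0.00218, 0.00323, 0.0438 and 0.0497. The call of Psmd1 was lost under 13 and that of Psmb9 under 17 of 23 alternatives. No cause was tested.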

How the results depend on the processing

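Of 49 calls of a gene in a comparison, 28 held under every alternative fitted with limma, and of its 1172 alternative values 1066 stayed called in the same direction, 105 were no longer called and 1 reversed. The reversed value was the interaction of Psme1, at 0.029 with the mean over its probe sets. The methods' test, which has no value for the interaction, kept 13 of 45 calls, among them 9 of the 27 it could be run on of those that held with limma. It called 5 of the 46 genes for IL-1β, 3 for glucosamine and 1 for glucosamine + IL-1β against untreated, and 4 for glucosamine + IL-1β against IL-1β. The same test after Benjamini-Hochberg adjustment, chosen after seeing the data, kept 31 of the 45 and called 5 for glucosamine and 6 for glucosamine + IL-1β against untreated. It kept 24 of the 27 that held with limma. Those lost, both before and after this adjustment, were Psmd1 with IL-1β and Psmb9 with glucosamine, each against untreated, and Psme3ip1 with glucosamine + IL-1β against IL-1β. A fit to the 2 groups alone called 14 for glucosamine against untreated and 0 for glucosamine + IL-1β against glucosamine. Without both replicate d arrays, 13 were called for glucosamine and 16 for glucosamine + IL-1β against untreated, and 3 for glucosamine + IL-1β against glucosamine. Over all probe sets the last 3 calls numbered 6811, 9395 and 949, where with all arrays they were 4300, 6986 and 525. The interaction count was 2 under quantile normalization and 2 without the variance trend, and it has no fit to 2 groups.

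When 1 array was left out, the counts were 12 to 15 for IL-1β, 3 to 11 for glucosamine and 6 to 13 for glucosamine + IL-1β against untreated, 11 to 17 for glucosamine + IL-1β against IL-1β, 0 to 2 against glucosamine and 2 to 4 for the interaction. Calls over all probe sets varied too. In the same order they were 5419 to 8373, 2404 to 5353, 5338 to 7773, 5731 to 7999, 224 to 631 and 1495 to 3172. The count for glucosamine was 3 without its array a and 4 without b, and that for glucosamine + IL-1β against untreated was 6 without untreated array b. Against glucosamine, the count was 0 without glucosamine array a or b and 2 without array d of glucosamine + IL-1β, and the interaction count was 2 without glucosamine a or b, glucosamine + IL-1β a or c, or untreated b or c. With the replicate block, which the letters do not bear out as a pairing, they were 16, 9, 12, 15, 1 and 4 in the same order. No ratio passed the threshold under the alternatives (lowest adjusted p of 0.143), which says nothing of stability, since exact tests on so few arrays can hardly reach it after adjustment over 10 tests. The median change of all probe sets was 0.10 for IL-1β and 0.13 for glucosamine + IL-1β against untreated, and 0.00 and 0.05 under quantile normalization. The causes of these differences were not tested, and probe sets near the floor have no order.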
